A study of Mus musculus with 9 samples.

Results

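The 32 genes described here encode the path of glucose carbon from uptake to acetyl-CoA in the hippocampus of young mice: 3 for glucose uptake and hexokinase, 9 for upper glycolysis, 6 for lower glycolysis, 4 for lactate and its transport, 3 for pyruvate entry into mitochondria and pyruvate carboxylase, 4 for the pyruvate dehydrogenase complex and 3 for its kinases. They were taken by name from a list of glycolysis, lactate and pyruvate entry genes, with no threshold on a measured value. All 32 of 32 were found among the 23412 gene symbols of the table, and all 32 were among the 14336 genes that passed the filter of at least 1 TPM, a transcript level scaled by transcript length and library, in at least 3 of the 9 samples.

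The 9 samples are hippocampi of wild-type mice taken at postnatal day 21, in 3 groups of 3. In the PFOS P1-7 group, pups nursed on postnatal days 1 to 7 from dams gavaged each day with perfluorooctane sulfonate (PFOS), a persistent perfluorinated surfactant, at 1 mg/kg body weight. In the PFOS P8-14 group the dams received the same daily dose on days 8 to 14. The control group was sham treated, and no other allele or agent is given for any group. The design asks which of the exposure windows matters, so PFOS P1-7 and PFOS P8-14 were each set against control, and PFOS P8-14 against PFOS P1-7. The exposure reached pups through the dam, so a pup's own dose was not set, and the labels do not say whether the samples come from separate animals or litters. A p-value here thus reflects the spread among these samples alone, which may be technical. Both exposed groups were compared with the same 3 controls.

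Glycolysis splits glucose into pyruvate in the cytosol. Pyruvate is then reduced to lactate, or it crosses the inner mitochondrial membrane through the mitochondrial pyruvate carrier and is turned into acetyl-CoA by the pyruvate dehydrogenase complex, the gate to the tricarboxylic acid cycle, which pyruvate dehydrogenase kinases close by phosphorylation. In brain, astrocytes are known for strong glycolysis, lactate release and pyruvate carboxylation, and neurons for oxidising pyruvate and taking up lactate. Differences in bulk tissue do not tell fewer cells of a type from less RNA per cell.

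At day 21 no glycolysis or pyruvate gene differed between the groups past the threshold, an adjusted p below 0.05 in limma with Benjamini-Hochberg adjustment over all tested genes. This held for 0 of 32 in PFOS P1-7 against control and 0 of 32 in PFOS P8-14 against control, where 0% of all tested genes passed as well (smallest adjusted p over all genes 0.181 and 0.424). The genes nearest to the threshold were Tpi1, Ldha and Mpc2, lower in exposed hippocampi, and Pfkfb3 and Hk1, higher in them, all by less than 0.32 on the log2(TPM + 1) scale. At an unadjusted p below 0.05, 4 of 32 stood apart in PFOS P1-7, against 18.3% of all tested genes: 1 was higher (12.5% of all tested genes) and 3 were lower (5.79%). In PFOS P8-14 it was 1 of 32, against 11% of all tested genes, with 0 higher (6.33%) and 1 lower (4.65%). These counts after adjustment depended on 1 control library: without control replicate 1, limma called 4 of 32 in PFOS P1-7 against 18.5% of all genes, and 3 of 32 in PFOS P8-14 against 12.1%. That fit rests on control replicates 2 and 3 alone. Leaving out control replicate 2 or 3 instead, 0 of 32 passed in either group. The smallest adjusted p of a member in limma was then 0.503 and 0.492 in PFOS P1-7, and 0.885 and 0.779 in PFOS P8-14.

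Summed over the 32 genes, transcript levels were 18659, 19115 and 17738 TPM in PFOS P1-7 and 18909, 18657 and 19336 TPM in PFOS P8-14, against 19485, 18137 and 17625 TPM in control. The control libraries held both the highest and the lowest sum, so the groups overlapped throughout. Levels per length spanned a wide range, with Gapdh the highest at 4621 to 5376 TPM over the 9 libraries and Hk2 the lowest at 3.30 to 5.87 TPM.

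**Figure D1:**
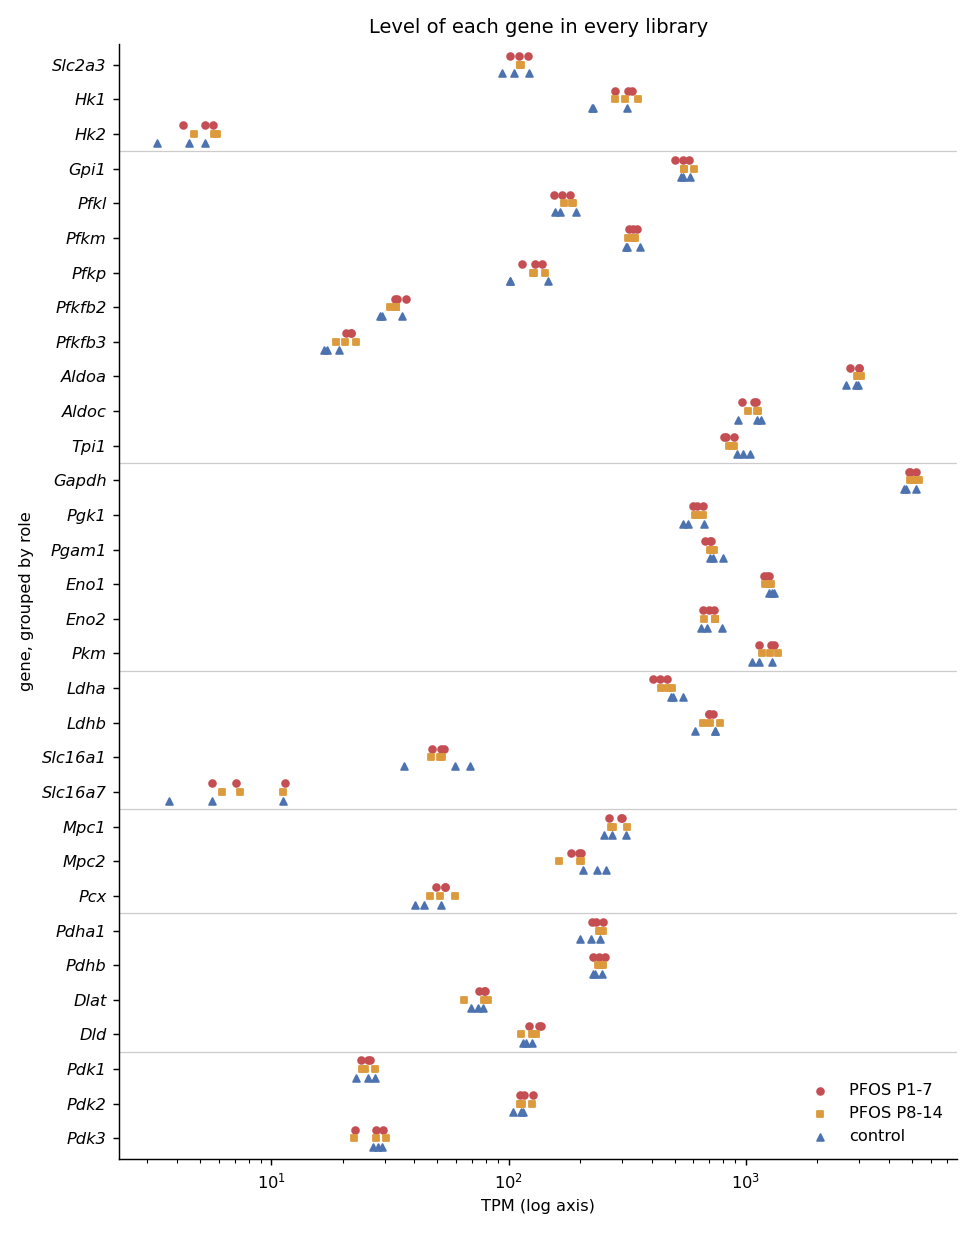
Level of each of the 32 genes in TPM, on a log axis, in each of the 9 libraries, with genes grouped by role and PFOS P1-7, PFOS P8-14 and control points below one another. Gapdh stands highest, at 4621 to 5376 TPM, and Hk2 lowest, at 3.30 to 5.87 TPM, and for most genes the points of the 3 groups overlap.

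Ttr, a choroid plexus transcript, stood at 11626, 39.6 and 10042 TPM in PFOS P1-7 and at 9446, 9864 and 107.7 TPM in PFOS P8-14, against 52.8, 35.1 and 10420 TPM in control. All 12 of 12 choroid plexus markers averaged higher in each exposed group than in control, 0 of them at an unadjusted p below 0.05, and Tmem72 was listed at 0 in at least 1 library. The summed level of 12 oligodendrocyte markers ran from 13134 to 18795 TPM in PFOS P1-7 and from 14641 to 15679 TPM in PFOS P8-14, against 9675 to 15895 TPM in control, lowest in control replicate 1. With the choroid plexus level as a covariate in limma, 2 of 32 members were higher and 0 lower in PFOS P1-7 at an unadjusted p below 0.05, and 1 higher and 1 lower in PFOS P8-14, with 0 passing after adjustment. Of all tested genes, 23.2% in PFOS P1-7 and 15.6% in PFOS P8-14 had an unadjusted p below 0.05 in that fit. Tpi1, Ldha and Mpc2 then differed by -0.18, -0.17 and -0.22 in PFOS P1-7, and Hk1 and Pfkfb3 by 0.32 and 0.28. The part of the oligodendrocyte markers in the results below was not tested. Hippocampal neuron markers were present in every library, with Prox1 at 17.1 to 51.5 TPM, Neurod6 at 213 to 329 TPM and Zbtb20 at 1.35 to 3.52 TPM. Summed over 12 such markers, PFOS P1-7 stood at 4639 to 5046 TPM and PFOS P8-14 at 4437 to 5184 TPM. Control stood at 3689 to 4767 TPM, lowest in control replicates 2 and 3. The median log2 difference of these markers was 0.21 and 0.24, against 0.09 and 0.06 over all tested genes. Their part in the results below was not tested. The deviation of genes from their mean ran with transcript length, at Spearman's rho 0.14, 0.43 and 0.16 in PFOS P1-7 and 0.19, -0.20 and 0.28 in PFOS P8-14, against 0.18, -0.41 and -0.49 in control.

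Glucose uptake and phosphorylation genes averaged higher in the exposed groups, 3 of 3 in each. Of all tested genes, 65.5% in PFOS P1-7 and 62.1% in PFOS P8-14 did so. With median-of-ratios scaling or with the length trend removed, 2 of 3 glucose uptake and phosphorylation genes did so in PFOS P1-7, where Slc2a3 turned lower. The median over all tested genes was 0.011 and 0.075 in those fits. None of the 3 had an unadjusted p below 0.05 in limma in either comparison, and none passed after adjustment. Their median log2 difference was 0.19 in PFOS P1-7 and 0.28 in PFOS P8-14, against medians of 0.09 and 0.06 over all tested genes. Hk1, the main brain hexokinase, which traps glucose in the cell as glucose 6-phosphate, lies on chromosome 10 (62268855 to 62379920, GRCm38, the mm10 build). It stood at 332, 317 and 281 TPM in PFOS P1-7 and at 351, 281 and 310.0 TPM in PFOS P8-14, against 315, 225 and 227 TPM in control. Control replicate 1 lay among the exposed libraries and control replicates 2 and 3 below all of them. The log2 difference was 0.29 (SE 0.14, adjusted p = 0.292 in limma) for PFOS P1-7 and 0.31 (SE 0.14, adjusted p = 0.455 in limma) for PFOS P8-14. Without control replicate 1 it was 0.45 (adjusted p = 0.0209 in limma) and 0.47 (adjusted p = 0.0255 in limma). That fit rests on control replicates 2 and 3 alone, and Hk1 did not pass when either of those was left out instead. With the length trend removed as well as control replicate 1, Hk1 passed in PFOS P8-14 (0.39, adjusted p = 0.0494 in limma) but not in PFOS P1-7.

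Hk2, the inducible hexokinase of muscle and of many growing cells, was far lower in level, at 5.06 ± 0.727 TPM in PFOS P1-7 and 5.42 ± 0.632 TPM in PFOS P8-14, against 4.34 ± 0.982 TPM in control (SD, n = 3 each). Hk1 thus made up 98.4% and 98.3% of the summed Hk1 and Hk2 level in PFOS P1-7 and PFOS P8-14, against 98.3% in control. Slc2a3, which encodes the neuronal glucose transporter GLUT3, stood at 101 to 120.2 TPM in PFOS P1-7 and at 111 to 112 TPM in PFOS P8-14, against 94.1 to 121 TPM in control. The PFOS P8-14 libraries were close together and inside the control range. Slc2a1, the glucose transporter gene of endothelium and glia and not one of the 32, ranged from 81.3 to 104.9 TPM over all libraries.

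Upper glycolysis runs from glucose 6-phosphate to the triose phosphates. At an unadjusted p below 0.05, 1 of 9 genes stood higher in PFOS P1-7 (12.5% of all tested genes) and 1 of 9 lower (5.79%). In PFOS P8-14 it was 0 of 9, against 6.33% higher and 4.65% lower of all tested genes. The gene higher in PFOS P1-7 was Pfkfb3, whose enzyme makes fructose 2,6-bisphosphate, the strongest allosteric activator of phosphofructokinase. Pfkfb3 stood at 21.7, 20.5 and 21.7 TPM in PFOS P1-7 and at 20.4, 18.7 and 22.6 TPM in PFOS P8-14, against 19.3, 16.7 and 17.1 TPM in control. The 3 PFOS P1-7 libraries all lay above the 3 controls, whereas in PFOS P8-14 replicate 2 lay below control replicate 1. It was the single gene of the 32 whose PFOS P1-7 libraries lay wholly above control, which 12.3% of all tested genes did. Relative to control, the log2 difference was 0.26 (SE 0.10, adjusted p = 0.234 in limma) for PFOS P1-7 and 0.21 (SE 0.10, adjusted p = 0.461 in limma) for PFOS P8-14.

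Tpi1 was the gene lower in PFOS P1-7. It encodes triosephosphate isomerase, which interconverts the triose phosphates, and lies on chromosome 6 (124810586 to 124814158). Tpi1 stood at 808, 892 and 827 TPM in PFOS P1-7 and at 846, 872 and 889 TPM in PFOS P8-14, against 917, 1041 and 971 TPM in control. Each of the 6 exposed libraries lay below each of the 3 controls. The log2 difference was -0.21 (SE 0.08, adjusted p = 0.221 in limma) for PFOS P1-7 and -0.17 (SE 0.08, adjusted p = 0.458 in limma) for PFOS P8-14. Tpi1 and Mpc2 were the only members of the 32 with both exposed groups wholly below control, as 3.44% of all tested genes were, and 0 members had both groups wholly above, as 4.85% were. In PFOS P8-14 alone the counts were the same, 2 of 32 wholly below (5.99% of all tested genes) and 0 of 32 wholly above (7.31%).

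Tpi1 transcripts are short, at a median of 1204.5 bases in the GENCODE annotation, against 2708 bases over tested genes, and short transcripts were relatively high in control replicates 2 and 3. With each library's trend on transcript length removed, the Tpi1 log2 difference was -0.08 (adjusted p = 0.659 in limma) for PFOS P1-7 and -0.07 (adjusted p = 0.775 in limma) for PFOS P8-14. Without control replicate 1, Tpi1 passed for PFOS P1-7 at -0.26 (adjusted p = 0.0398 in limma). With the length trend removed as well, it did not pass.

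**Figure D2:**
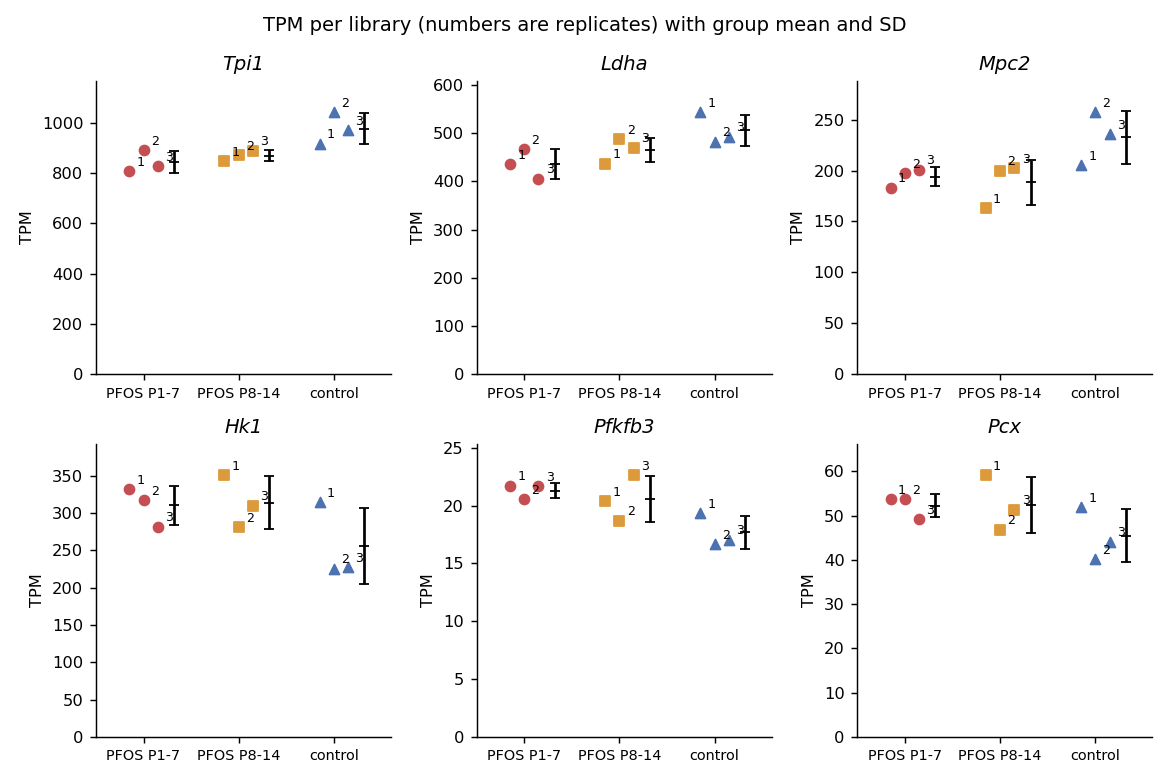
TPM in each library for 6 of the 32 genes, one panel per gene, with PFOS P1-7 left, PFOS P8-14 in the middle and control right; points are libraries, the numbers beside them replicates, and bars group means with SD. Tpi1 and Mpc2 have every exposed library below every control, and in Hk1 control replicate 1 lies at 315 TPM beside the exposed libraries while the other controls lie at 225 and 227 TPM.

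The other upper glycolysis genes overlapped between groups. Pfkfb2, a second enzyme of fructose 2,6-bisphosphate turnover, stood at 33.0, 37.1 and 33.8 TPM in PFOS P1-7 and at 33.4, 31.6 and 33.4 TPM in PFOS P8-14, against 35.5, 28.5 and 29.2 TPM in control. Control replicate 1 again lay among the exposed libraries, and the log2 difference was 0.16 (SE 0.10, adjusted p = 0.393 in limma) for PFOS P1-7. Gpi1, the isomerase that makes fructose 6-phosphate, stood at 575, 540.4 and 502 TPM in PFOS P1-7 and at 602, 546 and 549 TPM in PFOS P8-14, against 582, 542 and 531 TPM in control. Its lowest library was PFOS P1-7 replicate 3 and its highest PFOS P8-14 replicate 1.

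Phosphofructokinase commits the sugar to glycolysis and is built from liver, muscle and platelet type subunits. Pfkl, the liver type, stood at 181, 167 and 156 TPM in PFOS P1-7 and at 186, 171 and 185 TPM in PFOS P8-14, against 191, 165 and 157 TPM in control. Control replicate 1 was the highest library and the groups overlapped. Pfkm, the muscle type, averaged 334 ± 13.4 TPM in PFOS P1-7 and 332 ± 11.4 TPM in PFOS P8-14, against 328 ± 24.2 TPM in control (SD, n = 3 each). Pfkp, the platelet type, was at 114 to 138 TPM in PFOS P1-7 and at 126 to 142 TPM in PFOS P8-14, against 102 to 146 TPM in control, where control replicate 1 was the highest of all 9 libraries. Without that control, Pfkp stood 0.32 higher in PFOS P1-7 (adjusted p = 0.0443 in limma) and 0.37 higher in PFOS P8-14 (adjusted p = 0.0354 in limma). With the length trend removed as well, Pfkp passed in neither group. The shares of the subunit transcripts overlapped between groups. Pfkm made up 53.1% ± 1.78 of the 3 in PFOS P1-7 and 51.6% ± 0.808 in PFOS P8-14, against 53.4% ± 1.91 in control (SD, n = 3 each).

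Aldolase splits fructose 1,6-bisphosphate, and Aldoa and Aldoc, the astrocyte-enriched form in forebrain, were among the most abundant of the 32. Aldoa stood at 2992, 2980.5 and 2739 TPM in PFOS P1-7 and at 2969, 2938 and 3059.96 TPM in PFOS P8-14, against 2962, 2915 and 2643 TPM in control. Aldoc ranged from 966 to 1101 TPM in PFOS P1-7 and from 1024 to 1126 TPM in PFOS P8-14, against 926 to 1154 TPM in control. For both genes the groups overlapped, and log2 differences from control were at most 0.08 in size.

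In lower glycolysis, where ATP and NADH are made, 0 of 6 genes had an unadjusted p below 0.05 in limma in either comparison, and 0 passed after adjustment. Gapdh, the enzyme that oxidises glyceraldehyde 3-phosphate, stood at 4901, 5202 and 4857 TPM in PFOS P1-7 and at 4904, 5124 and 5376 TPM in PFOS P8-14, against 5188, 4709 and 4621 TPM in control. The groups overlapped, and the 95% confidence interval of the log2 difference ran from -0.16 to 0.25 for PFOS P1-7 and from -0.12 to 0.29 for PFOS P8-14. Gapdh is often used as a reference transcript, and these intervals do not show that it was equal in the groups. Pgk1, the first ATP-forming kinase of the pathway, averaged 626 ± 29.8 TPM in PFOS P1-7 and 631 ± 25.7 TPM in PFOS P8-14, against 592 ± 63.5 TPM in control (SD, n = 3 each).

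Pgam1, phosphoglycerate mutase, stood at 709.6, 707 and 669 TPM in PFOS P1-7 and at 706, 722 and 729.7 TPM in PFOS P8-14, against 796, 702 and 723 TPM in control. Control replicate 1 stood apart as the highest library. Eno1, the ubiquitous enolase, stood at 1251, 1231 and 1191 TPM in PFOS P1-7 and at 1203, 1247 and 1268 TPM in PFOS P8-14, against 1251, 1307 and 1283 TPM in control. The PFOS P1-7 libraries lay below all controls, with PFOS P1-7 replicate 1 at 1250.9 TPM just under control replicate 1 at 1251.4 TPM. On the log2 scale the difference was -0.07 (SE 0.07, adjusted p = 0.608 in limma), and it turned to 0.08 with quantile normalization. Eno1 was 1 of 4 members, with Tpi1, Ldha and Mpc2, whose PFOS P1-7 libraries lay wholly below control, against 6.56% of all tested genes.

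Eno2, the neuronal enolase, ranged from 659 to 736 TPM in PFOS P1-7 and from 666 to 743 TPM in PFOS P8-14, against 646 to 792 TPM in control. Pkm, pyruvate kinase, which makes pyruvate and ATP, averaged 1242 ± 91.0 TPM in PFOS P1-7 and 1266 ± 94.1 TPM in PFOS P8-14, against 1158 ± 114.6 TPM in control (SD, n = 3 each). Its splice forms, which mark neurons and astrocytes differently, are summed in this gene-level table. Genes such as Gapdh, Pgk1 and Eno1 have processed copies in the mouse genome with near-identical sequence, so their levels are uncertain to the extent that reads were shared. The testis forms Gapdhs, Pgk2 and Ldhc were listed at 0 in every library.

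In lactate metabolism, the PFOS P1-7 libraries lay below all controls for Ldha, and 0 of 4 genes passed after adjustment in either comparison. Lactate dehydrogenase interconverts pyruvate and lactate, and its A subunit, encoded by Ldha on chromosome 7 (46842274 to 46855627), favours lactate formation, while the B subunit of Ldhb favours pyruvate. Ldha stood at 436, 467 and 405 TPM in PFOS P1-7 and at 437, 487 and 469.9 TPM in PFOS P8-14, against 543, 482 and 493 TPM in control. PFOS P8-14 replicate 2 lay between the controls, so that group overlapped control and PFOS P1-7 did not. Relative to control, the log2 difference was -0.22 (SE 0.08, adjusted p = 0.235 in limma) for PFOS P1-7 and -0.12 (SE 0.08, adjusted p = 0.546 in limma) for PFOS P8-14. With the length trend removed the values were -0.13 (adjusted p = 0.538 in limma) and -0.06 (adjusted p = 0.829 in limma).

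Ldhb stood at 701, 722 and 697 TPM in PFOS P1-7 and at 778.5, 706 and 662 TPM in PFOS P8-14, against 738, 612 and 737 TPM in control. All groups overlapped. The ratio of Ldhb to Ldha within a library, which does not depend on library scaling, was 1.61, 1.55 and 1.72 in PFOS P1-7 and 1.78, 1.45 and 1.41 in PFOS P8-14, against 1.36, 1.27 and 1.495 in control. The PFOS P1-7 ratios lay above all control ratios and the PFOS P8-14 ratios overlapped them (exact permutation test over the 3 groups, two-sided, p = 0.164, adjusted p = 0.789 over 13 ratios).

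The monocarboxylate transporters carry lactate and pyruvate across the cell membrane. Slc16a1, the transporter of endothelium and glia known as MCT1, ranged from 47.5 to 53.5 TPM in PFOS P1-7 and from 47.2 to 52.5 TPM in PFOS P8-14, against 36.2 to 68.5 TPM in control. The exposed libraries lay inside the control range. Slc16a7, the neuronal high-affinity transporter MCT2, ranged from 5.60 to 11.4 TPM in PFOS P1-7 and from 6.20 to 11.2 TPM in PFOS P8-14, against 3.71 to 11.2 TPM in control. Its standard error of 0.35 was the widest of the 32, so a difference of the size seen in Hk1 was not detectable for it. Bsg, the chaperone that MCT1 needs to reach the membrane and not one of the 32, ranged from 950.4 to 1244 TPM over all libraries.

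Promoter sequences are shown for Ldha, Pfkfb3 and Tpi1. Ldha, the lactate gene, and Pfkfb3, the regulator, stood on opposite sides of control in PFOS P1-7. Glycolysis genes are known targets of hypoxia-inducible factor (HIF), which can bind the letters ACGTG. Other forms of its core were not searched, and binding was not measured. RefSeq windows of 250 bases before an annotated transcript start, build GRCm38.p6, were available for 30 of 32 members, with 48 windows in all; Slc2a3 and Slc16a7 had none. The runs below are windows trimmed of bases that lie in a GENCODE exon of the gene, and read 5′ to 3′ on the gene's strand. For Ldha and Pfkfb3 they precede a start inside the gene's annotated extent, which for Pfkfb3 is chromosome 2, 11471430 to 11554071, so they are upstream of that transcript and not of the whole gene. Each of the pair has another window, and the one with more matches is shown. They are chr7:46845554-46845803 on the plus strand for Ldha, chr2:11502102-11502340 on the minus strand for Pfkfb3 and chr6:124814297-124814408 on the minus strand for Tpi1. Capitals mark ACGTG or its reverse complement CACGT, and the palindrome CACGTG, which holds both, counts as 2 matches.
Ldha: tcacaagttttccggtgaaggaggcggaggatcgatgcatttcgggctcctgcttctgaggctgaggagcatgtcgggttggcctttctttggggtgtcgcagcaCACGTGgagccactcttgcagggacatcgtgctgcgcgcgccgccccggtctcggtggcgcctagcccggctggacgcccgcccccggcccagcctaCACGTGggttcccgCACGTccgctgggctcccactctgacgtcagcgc
Pfkfb3: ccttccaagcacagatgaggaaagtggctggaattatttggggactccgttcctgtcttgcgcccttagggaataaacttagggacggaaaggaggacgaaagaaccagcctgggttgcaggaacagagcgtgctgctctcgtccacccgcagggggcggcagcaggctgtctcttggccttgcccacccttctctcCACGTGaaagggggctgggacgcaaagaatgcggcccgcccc
Tpi1: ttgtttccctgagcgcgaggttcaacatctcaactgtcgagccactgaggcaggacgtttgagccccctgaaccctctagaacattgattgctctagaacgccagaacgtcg

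The Ldha run holds 5 matches and the Pfkfb3 run 2, while the Tpi1 run holds 0, which says only that these letters are not in that window. The other Ldha window holds 0 matches, and the other Pfkfb3 window 1 over its full length and 0 once trimmed. Over full windows and both strands, ACGTG was found in 14 of 30 members (46.7%), against 18.5% of 27025 genes with a window. Members had 1.6 windows per gene against 1.22 over all genes, and a median GC content of 61.2% against 52.4%, and their part in that share was not tested. The 14 members with a match had a median log2 difference of 0.06 in PFOS P1-7 and 0.08 in PFOS P8-14, and the 16 without had 0.01 and 0.04. The letters CCAAT were found in 15 of 30 members (50.0%), against 37.5% of genes, on either strand, and its matches cannot overlap those of ACGTG. Ldha and Pfkfb3 both hold ACGTG, and one stood lower and the other higher than control in PFOS P1-7.

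At the mitochondrial membrane, Mpc2 averaged lower in both exposed groups, while the groups overlapped for its partner Mpc1. The products of Mpc1 and Mpc2 form the heterodimer that imports pyruvate, and Mpc2 lies on chromosome 1 (165461260 to 165481218). Mpc2 stood at 183, 198 and 201 TPM in PFOS P1-7 and at 163, 199.8 and 202 TPM in PFOS P8-14, against 205, 257 and 235 TPM in control. Each exposed library lay below each control, with control replicate 1 at 205.1 TPM just above PFOS P8-14 replicate 3 at 202.2 TPM. The log2 difference was -0.26 (SE 0.11, adjusted p = 0.256 in limma) for PFOS P1-7 and -0.30 (SE 0.11, adjusted p = 0.426 in limma) for PFOS P8-14, the lowest of the 32 in both comparisons. Without control replicate 1, Mpc2 passed in both, at -0.34 (adjusted p = 0.0467 in limma) and -0.39 (adjusted p = 0.0410 in limma). With the length trend removed as well, Mpc2 passed in neither. Mpc2 transcripts have a median length of 1025 bases, and with the length trend removed the differences were -0.10 (adjusted p = 0.628 in limma) and -0.18 (adjusted p = 0.526 in limma).

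Mpc1, whose transcripts are as short at a median of 920 bases, stood at 264, 297 and 299 TPM in PFOS P1-7 and at 269, 314 and 275 TPM in PFOS P8-14, against 251, 273 and 312 TPM in control. The groups overlapped fully. The ratio of Mpc2 to Mpc1 within a library was 0.693, 0.666 and 0.672 in PFOS P1-7 and 0.605, 0.636 and 0.736 in PFOS P8-14, against 0.817, 0.942 and 0.755 in control. All 6 exposed ratios lay below all 3 control ratios, by -0.30 in PFOS P1-7 and -0.34 in PFOS P8-14 on the log2 scale (exact permutation test over the 3 groups, two-sided, p = 0.0321, adjusted p = 0.418 over 13 ratios, smallest p the design allows 0.00357). With the length trend removed the log2 differences were -0.32 and -0.36 (exact permutation test, p = 0.025, adjusted p = 0.217). Mpc1 by itself then differed from control by 0.22 and 0.18, and Mpc2 by -0.10 and -0.18, so that ratio reflects both genes. Leaving out 1 library gave an exact permutation p of 0.0107 to 0.0821 for Mpc2 to Mpc1, the highest without PFOS P8-14 replicate 2, and the difference kept its sign in both groups. Mpc2 to Mpc1 had the smallest p of the 13 ratios with all libraries, but not without PFOS P1-7 replicate 1 (Pfkl to Pfkm, exact permutation p = 0.0429, against 0.0786) or without PFOS P8-14 replicate 1 (Ldhb to Ldha, exact permutation p = 0.0393, against 0.0679). The 11 others beside it and Ldhb to Ldha had an adjusted p of 0.789 each in the exact permutation test.

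**Figure D3:**
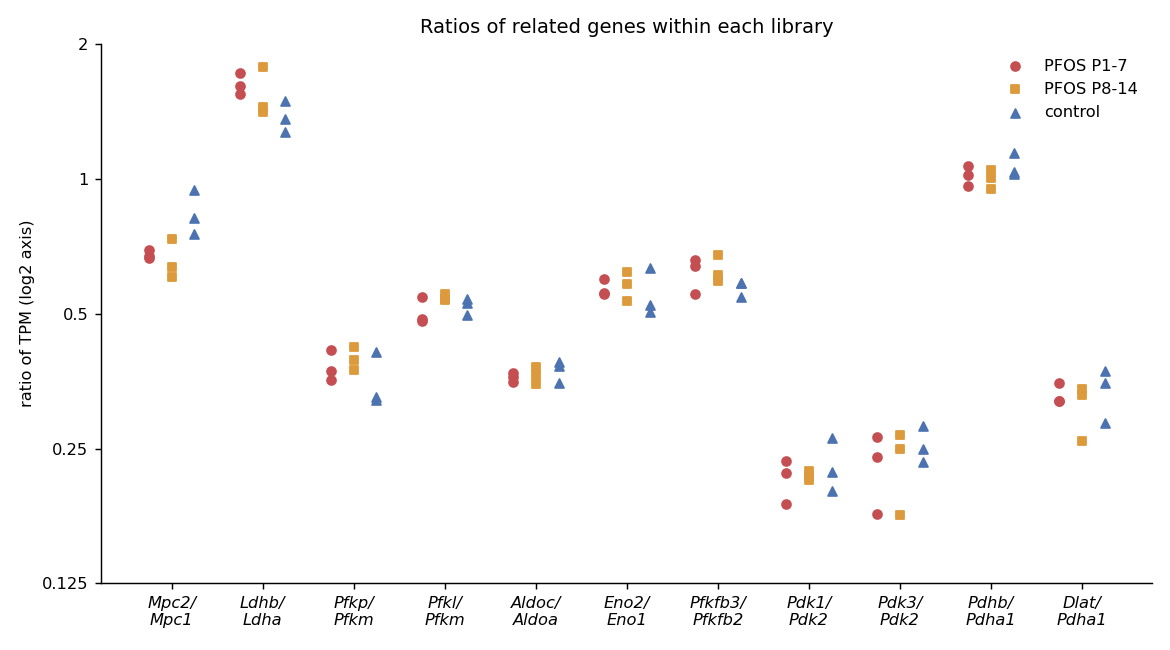
Ratio of TPM within each library on a log2 axis for 11 of the 13 pairs of related genes, with PFOS P1-7 left, PFOS P8-14 in the middle and control right in each pair, and each point a library. The 6 exposed Mpc2 to Mpc1 ratios lie at 0.605 to 0.736, below the control ratios of 0.755 to 0.942, and the PFOS P8-14 Ldhb to Ldha ratios overlap those of control.

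Pcx, pyruvate carboxylase, makes oxaloacetate from pyruvate and in brain marks astrocytes. It stood at 53.8, 53.8 and 49.2 TPM in PFOS P1-7 and at 59.2, 46.8 and 51.3 TPM in PFOS P8-14, against 52.0, 40.2 and 44.1 TPM in control. Control replicate 1 lay inside the range of both exposed groups. The log2 difference was 0.20 in each, with an SE of 0.11 (adjusted p = 0.353 and 0.491 in limma). The summed level of 12 astrocyte markers ran from 2392 to 2739 TPM in PFOS P1-7 and from 2342 to 2572 TPM in PFOS P8-14, against 2095 to 2792 TPM in control, and its part in the level of Pcx was not tested.

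The 4 genes of the pyruvate dehydrogenase complex averaged higher in both exposed groups as deposited, 4 of 4 in each, beside 65.5% and 62.1% of all tested genes. With median-of-ratios scaling it was 2 of 4 in PFOS P1-7 and 1 of 4 in PFOS P8-14. The median over all tested genes was then 0.011 and 0.005. As deposited, the median log2 differences of the 4 were 0.09 and 0.05, beside 0.09 and 0.06 over all tested genes. None of the 4 had an unadjusted p below 0.05 in limma in either comparison, and none passed after adjustment. Pdha1, the X-linked catalytic subunit of E1 that the kinases phosphorylate, stood at 234, 249 and 225 TPM in PFOS P1-7 and at 249, 239 and 241 TPM in PFOS P8-14, against 242, 199 and 223 TPM in control. The exposed libraries overlapped control replicate 1, and the log2 difference was 0.14 (SE 0.08, adjusted p = 0.507 in limma) for PFOS P8-14. Pdhb, the other E1 subunit, stood at 226, 254 and 240.1 TPM in PFOS P1-7 and at 237, 250.4 and 243 TPM in PFOS P8-14, against 248, 227 and 231 TPM in control. Its levels sat close to those of Pdha1, with which it is assembled in equal numbers.

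Dlat, the E2 core that transfers the acetyl group, was lower in level, at 74.9, 79.4 and 78.9 TPM in PFOS P1-7 and at 64.7, 78.7 and 82.0 TPM in PFOS P8-14, against 69.0, 74.1 and 78.0 TPM in control. PFOS P8-14 replicate 1 was the lowest library and replicate 3 of that group the highest. Dld, the E3 dehydrogenase shared with other 2-oxoacid dehydrogenases, stood at 122, 136 and 134 TPM in PFOS P1-7 and at 113, 126 and 130.1 TPM in PFOS P8-14, against 118, 114 and 126 TPM in control. All groups overlapped. Pdhx, the E3-binding subunit and not one of the 32, ranged from 48.2 to 61.2 TPM over all libraries. Summed over the 4 genes, the complex stood at 657, 719 and 678 TPM in PFOS P1-7 and at 664, 694 and 696 TPM in PFOS P8-14, against 677, 614 and 658 TPM in control.

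Pyruvate dehydrogenase kinases switch the complex off. Pdk2, the most abundant of the 3 kinases here, stood at 126, 112 and 116 TPM in PFOS P1-7 and at 126, 111 and 113 TPM in PFOS P8-14, against 104, 115 and 113 TPM in control. Control replicate 1 was the lowest library. Pdk1, a target of hypoxia-inducible factor, averaged 25.1 ± 1.21 TPM in PFOS P1-7 and 25.3 ± 1.73 TPM in PFOS P8-14, against 25.2 ± 2.32 TPM in control (SD, n = 3 each). Pdk3 averaged 26.6 ± 3.64 TPM in PFOS P1-7 and 26.8 ± 4.15 TPM in PFOS P8-14, against 28.0 ± 1.19 TPM in control (SD, n = 3 each). The log2 differences of the 3 kinases lay between -0.08 and 0.09, and Pdk4, not one of the 32, ranged from 4.11 to 6.49 TPM over all libraries.

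**Figure D4:**
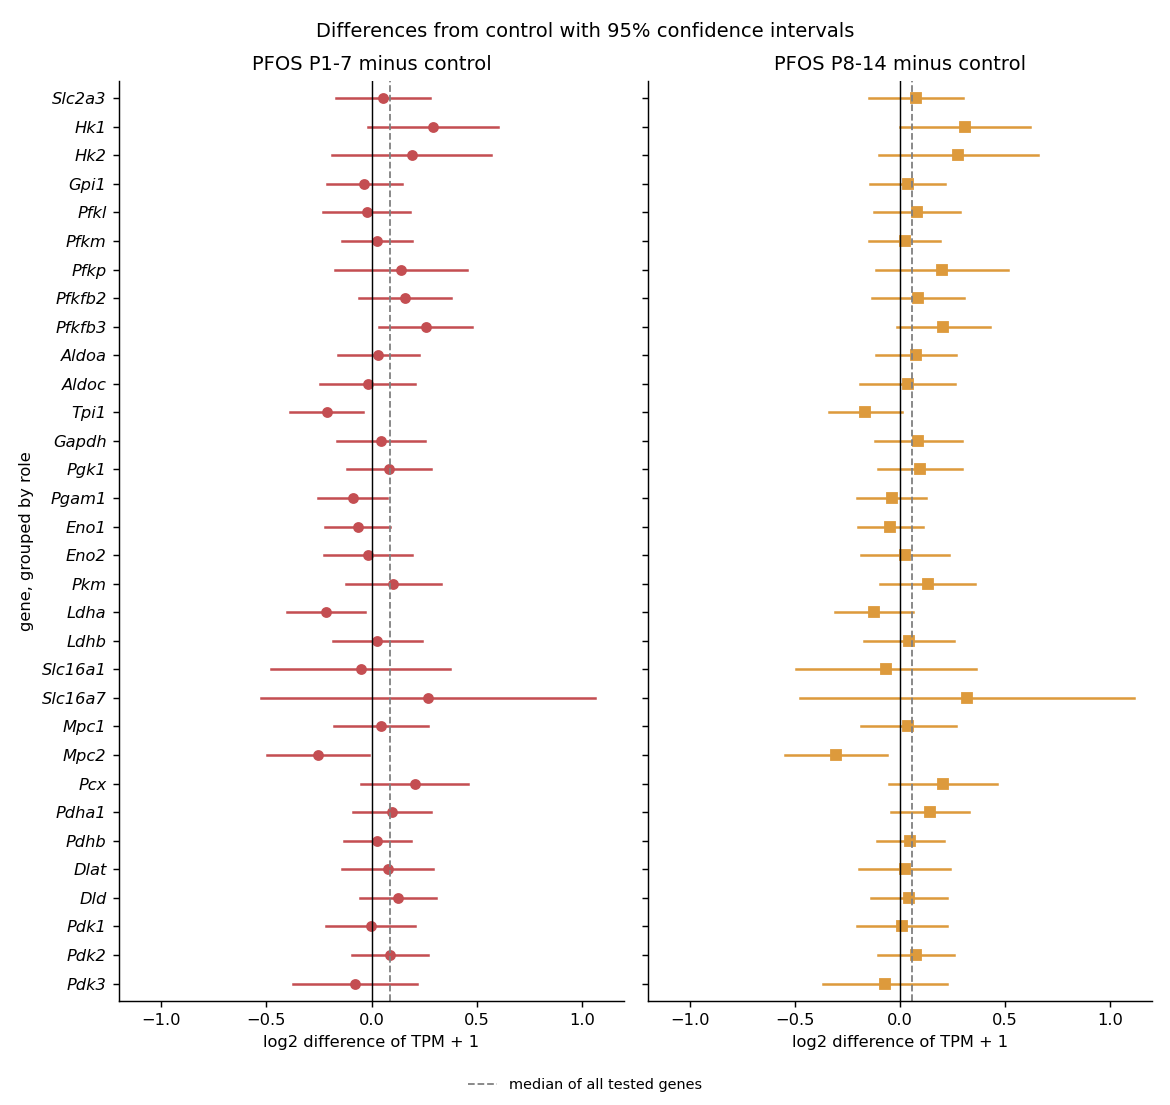
Log2 difference of each of the 32 genes from control on the log2(TPM + 1) scale, PFOS P1-7 in the left panel and PFOS P8-14 in the right, with 95% confidence intervals from limma, genes grouped by role and a dashed line at the median of all tested genes. Mpc2 is lowest in both panels, at -0.26 and -0.30, and the intervals of most genes include 0.

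The exposure windows were also set against each other. In PFOS P8-14 against PFOS P1-7, 0 of 32 passed the threshold (adjusted p = 1 for each in limma), with 0% of all tested genes passing, and 0 of 32 had an unadjusted p below 0.05, against 1.1% of all tested genes (0.467% higher and 0.635% lower). The log2 differences ran from -0.09 for Dld (SE 0.08) to 0.10 for Pfkl (SE 0.09), and Ldha followed at 0.09 (SE 0.08). Gpi1 was at 0.07 and Pgam1 at 0.05, while Pfkfb2 was at -0.07 and Dlat and Pfkfb3 at -0.05 each. All 32 genes overlapped between the exposed groups, where 1.9% of all tested genes lay wholly above and 4.15% wholly below. Of the 32, 22 averaged higher in PFOS P8-14 at any p, against 38.8% of all tested genes, and 10 lower, against 61.2%. Their median log2 difference was 0.0192, against -0.0292 over all tested genes. That median followed single libraries. Without PFOS P1-7 replicate 3 it was -0.00278, against -0.0274 over all tested genes. Without PFOS P1-7 replicate 2 it was 0.0541, against -0.0201. The median 95% interval reached 0.21 to either side, so differences below that size between the windows were not detectable for a typical member.

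Some of the pattern over the 32 followed single libraries. Among the controls, replicate 1 was the highest for 25 of 32 genes, against 52.3% of all tested genes. Replicate 2 was the highest for 4 (23.9%) and replicate 3 for 3 (23.7%). Over all 9 libraries, control replicate 1 was the highest for 11 genes. Control replicates 2 and 3 were the lowest of the 9 for 10 and 9 genes. Shares over all tested genes are not given for these counts over 9 libraries. The median deviation of all tested genes from their mean was 0.03, -0.08 and -0.07 in control replicates 1, 2 and 3. For the 32 it was 0.08, -0.07 and -0.09. In direction alone, 20 of 32 averaged higher in PFOS P1-7, against 65.5% of all tested genes, and 12 lower, against 34.5%. In PFOS P8-14, 25 of 32 averaged higher, against 62.1%, and 7 lower, against 37.9%. With median-of-ratios scaling 11 and 15 of 32 averaged higher, and with quantile normalization 24 and 24, so directions of small differences depended on the scaling. Their median log2 difference was 0.04 and 0.05, against 0.09 and 0.06 over all tested genes. With libraries weighted by limma's array weights, which give less weight to libraries far from their group, 4 of 32 passed in PFOS P1-7 (20.3% of all tested genes), namely Hk1 and Pfkfb3 higher and Tpi1 and Mpc2 lower, and 1 of 32, Mpc2, passed in PFOS P8-14 (7.35%).

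The difference from control ran with transcript length, across the 32 genes at Spearman's rho 0.36 in PFOS P1-7 and 0.29 in PFOS P8-14, and across 13457 genes with a length at 0.47 and 0.40. Genes share their libraries and are not independent replicates. Among the 11 members under 2000 bases, 6 averaged higher in PFOS P1-7, and of all genes of that length 41.5% did; in PFOS P8-14 it was also 6 of 11, against 41.7%. Among the 9 members of 3000 bases or more, 6 averaged higher, and of all such genes 84.4% did; in PFOS P8-14 it was 8 of 9, against 79%. Hk1, at 3745 bases, and Pcx, at 4061 bases, are long, and with the trend removed they stood 0.23 and 0.13 higher in PFOS P1-7 and 0.26 and 0.15 higher in PFOS P8-14. Pfkfb3, at 2135 bases, stood 0.29 and 0.23 higher. With that trend removed and control replicate 1 left out as well, 1 of 32 passed in PFOS P1-7 (9.49% of all tested genes), Pfkfb3 at 0.37 (adjusted p = 0.0489 in limma), and 1 of 32 in PFOS P8-14 (6.18%), Hk1 at 0.39 (adjusted p = 0.0494 in limma). With the trend alone removed, signs were kept for Tpi1, Ldha, Mpc2, Hk1, Pfkfb3 and Pcx, and with control replicate 1 left out too Ldha turned higher in PFOS P8-14. The length trend and exposure cannot be told apart where they move together between groups.

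**Figure D5:**
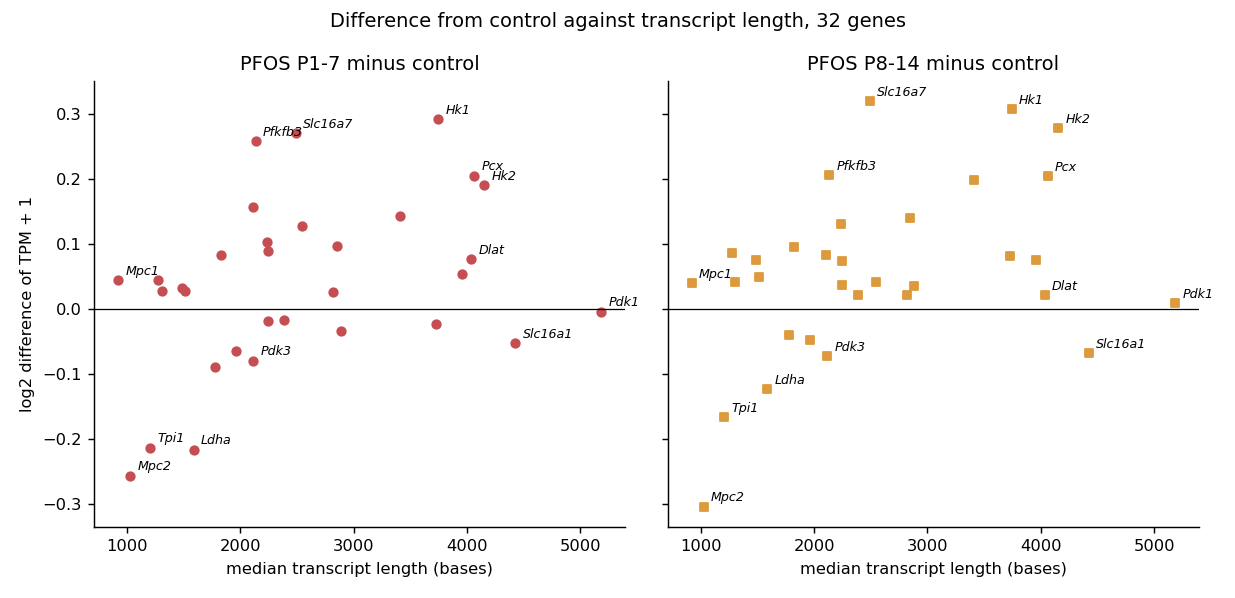
Log2 difference from control of the 32 genes against median transcript length in bases, PFOS P1-7 left and PFOS P8-14 right. The members run from Mpc1 at 920 bases upward, with Mpc2 and Tpi1 short and low and Hk1 and Pcx long and high, at Spearman's rho 0.36 and 0.29. Others depart from the trend: Mpc1 lies at 0.04 in both panels. Pdk1, at 5185 bases, lies at -0.004 and 0.009, and Slc16a1, at 4426 bases, at -0.05 and -0.07.

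In the lists of genes around the pathway, 0 passed the threshold in either comparison. Of 31 tested genes in a list of other glycolysis and pyruvate genes, 5 stood higher and 0 lower in PFOS P1-7 at an unadjusted p below 0.05, and 1 and 0 in PFOS P8-14. Of all tested genes, 12.5% stood higher and 5.79% lower in PFOS P1-7 by that rule, and 6.33% and 4.65% in PFOS P8-14. Slc2a4, the insulin-responsive glucose transporter, had the smallest p among them, at 3.48, 1.57 and 2.59 TPM in PFOS P1-7 and 3.53, 2.49 and 1.39 TPM in PFOS P8-14, against 0.87, 0.79 and 1.5 TPM in control. PFOS P1-7 lay wholly above control and PFOS P8-14 did not. The log2 difference was 0.77 (SE 0.28, adjusted p = 0.22 in limma) and 0.72 (SE 0.28, adjusted p = 0.429 in limma). Control replicates 1 and 2 lay below the filter level of 1 TPM, so Slc2a4 was tested only through its exposed libraries. Of 21 tricarboxylic acid cycle genes, 18 and 19 averaged higher in PFOS P1-7 and PFOS P8-14, and 14 and 14 with median-of-ratios scaling, and 1 had an unadjusted p below 0.05 in each. As deposited, 65.5% and 62.1% of all tested genes averaged higher. The medians were then 0.14 and 0.12 for the cycle genes against 0.09 and 0.06 over all tested genes. With median-of-ratios scaling they were 0.05 and 0.06 against 0.011 and 0.005. In the hypoxia-inducible factor pathway list of 18, 2 stood higher and 3 lower in PFOS P1-7 at an unadjusted p below 0.05, and 1 and 4 in PFOS P8-14, beside the same shares of all tested genes: 12.5% and 5.79% in PFOS P1-7, and 6.33% and 4.65% in PFOS P8-14. The median log2 difference of that list was 0.01 and -0.003, against 0.09 and 0.06 over all tested genes.

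Egln2, a prolyl hydroxylase that marks hypoxia-inducible factor for degradation, stood at 106, 103.6 and 102 TPM in PFOS P1-7 and at 108, 102 and 104 TPM in PFOS P8-14, against 119.7, 135 and 122 TPM in control. Each exposed library lay below each control, and the log2 difference was -0.27 (adjusted p = 0.183 in limma) and -0.26 (adjusted p = 0.426 in limma). Epas1, which encodes HIF-2α and in brain is high in endothelium, stood at 74.8, 70.8 and 73.0 TPM in PFOS P1-7 and at 76.0, 71.0 and 67.8 TPM in PFOS P8-14, against 66.0, 61.3 and 56.5 TPM in control. Each exposed library lay above each control (0.25 and 0.22, adjusted p = 0.21 and 0.426 in limma). Of all tested genes, 3.44% had both exposed groups wholly below control, as Egln2 did, and 4.85% wholly above, as Epas1 did.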

How the data were processed

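Stranded poly(A) RNA libraries of 9 mouse hippocampi were sequenced. The authors deposited 1 table of TPM per gene symbol, made with bcl2fastq, fastp 0.21.0, STAR 2.5.3a, RSEM 1.3.3 and genome build mm10, per the submitters' processing notes. The gene annotation is not given in the sources used here. Read counts cannot be had from TPM, so library depth is unknown and intervals for counting error are not given.

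From there, log2(TPM + 1) of 14336 genes was fitted in limma 3.58.1 (R 4.3.3) with 1 mean per group, moderated variances with a trend and Benjamini-Hochberg adjustment over all tested genes, two-sided, at a threshold of 0.05. Ratios of 13 gene pairs were tested by an exact permutation test over 1680 assignments. Transcript lengths came from GENCODE for 93.9% of tested genes, promoter windows from RefSeq. The fit was tested on simulated data. Figures were drawn with matplotlib 3.10.9.

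The members, pathway and cell marker lists were chosen with earlier results of these data known. Named with values in every sample were the 4 members with the smallest p in each direction in each comparison, the most abundant member of each role, and members apart from control in both exposed groups. Of other lists, the gene with the smallest p in each direction was named where that p was below 0.05 unadjusted. The alternatives tried, 23 per comparison, were other pseudocounts, filters, scalings, weights, moderations and covariates, a replicate block, and leaving out each library.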

Additional observations from a re-analysis of the deposited data

How the results depend on the processing

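No member passed after adjustment in either exposed group against control, except in the settings named here. With array weights 4 members passed in PFOS P1-7 and 1 in PFOS P8-14, and with the length trend removed and control replicate 1 left out 1 and 1. Leaving out 1 library gave 0 to 4 and 0 to 3, both highest without control replicate 1, 0 between the exposed groups, and 0 to 1 in the F test of any difference. Counts at an unadjusted p below 0.05, 4 in PFOS P1-7 and 1 in PFOS P8-14, were 1 in PFOS P1-7 with quantile normalization and 2 in PFOS P8-14 with median-of-ratios scaling. They were 8 and 7 with array weights, 2 and 2 with a choroid plexus covariate, 2 and 2 with the length trend removed, 10 and 12 with control replicate 1 left out as well, and 0 to 8 and 0 to 10 leaving out 1 library. The shares of all tested genes were 18.3% and 11% in the main fit, and 37.3% and 29.7% with array weights. With quantile normalization the share was 16.5% in PFOS P1-7, and with median-of-ratios scaling 11.2% in PFOS P8-14. The shares were 23.2% and 15.6% with the covariate, and 14.8% and 10% with the length trend removed. With control replicate 1 left out as well they were 26.2% and 24.6%, and leaving out 1 library gave 9.42% to 34% and 4.97% to 30.2%. The median log2 difference of members was 0.0385 in PFOS P1-7 and 0.0454 in PFOS P8-14, against 0.0875 and 0.0583 over all tested genes. With median-of-ratios scaling it was -0.0448 and -0.0136, a sign change in both, against 0.0111 and 0.00523 over all tested genes. Members thus lay below all tested genes with either scaling. With quantile normalization they lay above, at 0.0585 and 0.0565 against 0.00471 and 0.00108. Leaving out 1 library, the member median was 0.0128 (without PFOS P1-7 replicate 2) to 0.07 and 0.0275 (without control replicate 2) to 0.101. Both were highest without control replicate 1. With length trend and control replicate 1 removed it was 0.11 and 0.13. Signs turned for Eno1 in PFOS P8-14 with quantile normalization (0.0707), and, with length trend and control replicate 1 removed, for Pgam1 in PFOS P1-7 (0.0615) and Ldha in PFOS P8-14 (0.0293). In PFOS P8-14 against PFOS P1-7, leaving out 1 library gave -0.121 to 0.048 for Dlat and -0.12 to 0.011 for Pfkfb3. The cause was not tested.

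With the replicate number as a replicate block, 6 members had an unadjusted p below 0.05 in PFOS P1-7 and 4 in PFOS P8-14, and 0 passed after adjustment in limma. Of all tested genes, 21.7% and 14.8% had an unadjusted p below 0.05 in that fit. Same-numbered samples correlated between -0.47 and 0.53, over 0.1 in 5 of 9 pairs, and 6 of 18 correlated best with their own number. With 3 libraries per group, these correlations cannot tell whether the numbers pair the samples. Under the alternatives not named here, these counts stayed within 1.5 times and named members kept their sign, and 12 values of single named members passed the threshold under the settings named above. Depth is unknown, and the median 95% interval of 0.21 to either side limits what could be seen.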

Other observations

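Branches off glycolysis held genes with differences as large as those of the 32, and 0 of them passed after adjustment. Gbe1, the glycogen branching enzyme, stood at 9.86, 9.07 and 11.4 TPM in PFOS P1-7, against 8, 7.38 and 7.05 TPM in control, a log2 difference of 0.39 (SE 0.12, adjusted p = 0.208 in limma). Gyg, glycogenin, which primes glycogen, stood at 42, 38.8 and 43.6 TPM in PFOS P1-7, against 45.1, 48.3 and 49.7 TPM in control (-0.20, adjusted p = 0.238 in limma). For both genes the PFOS P1-7 libraries did not overlap control. Pygm, the muscle-type glycogen phosphorylase found in astrocytes, stood at 32.9, 27.1 and 25.4 TPM in PFOS P8-14, against 23.0, 15.5 and 21.8 TPM in control, without overlap (0.49, SE 0.16, adjusted p = 0.426 in limma). Of 20 glycogen metabolism genes, 1 stood higher and 2 lower in PFOS P1-7 at an unadjusted p below 0.05, and 3 and 0 in PFOS P8-14, against 12.5% higher and 5.79% lower of all tested genes in PFOS P1-7 and 6.33% and 4.65% in PFOS P8-14. Of all tested genes, 12.3% lay wholly above and 6.56% wholly below control in PFOS P1-7, and 7.31% and 5.99% in PFOS P8-14.

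In the pentose phosphate pathway, where 8 genes were tested, G6pdx, its first enzyme, stood at 28.1, 28.0 and 31.8 TPM in PFOS P1-7, against 26.95, 23.8 and 24.7 TPM in control (0.21, adjusted p = 0.255 in limma). The groups did not overlap. Rpia, ribose 5-phosphate isomerase, stood at 13.5, 11.5 and 12.4 TPM in PFOS P8-14, against 15.5, 14.3 and 15.3 TPM in control, also without overlap (-0.25, adjusted p = 0.426 in limma). Tkt, transketolase, stood at 153.3, 127 and 124.7 TPM in PFOS P8-14, against 127, 98.4 and 109 TPM in control, where control replicate 1 lay among the exposed libraries (0.28, adjusted p = 0.443 in limma). In the tricarboxylic acid cycle, Sucla2, a succinyl-CoA synthetase subunit, stood at 163, 171 and 176.5 TPM in PFOS P1-7, against 159, 144 and 150.5 TPM in control, without overlap (0.17, adjusted p = 0.259 in limma). Suclg2, another subunit of that enzyme, stood at 23.99, 21.5 and 19.1 TPM in PFOS P8-14, against 19.6, 14.2 and 18.6 TPM in control (0.30, adjusted p = 0.453 in limma). Of 10 shuttle genes, Gpd2, the mitochondrial glycerol phosphate dehydrogenase, stood at 66.5, 84.6 and 71.5 TPM in PFOS P1-7, against 73.5, 53.1 and 48.3 TPM in control (0.36, adjusted p = 0.269 in limma). Control replicate 1 lay inside the PFOS P1-7 range.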
